A study of Ovis aries with 12 samples.

Results

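The genes described here are a run of consecutive cattle gene identifiers that includes the genes carried by the mitochondrial genome. They were taken by number alone, as every row of the count files from ENSBTAG00000043541 to ENSBTAG00000043584, and are called the block below. The range spans 44 numbers, of which 42 have a row among the 24616 genes of each file, while ENSBTAG00000043543 and ENSBTAG00000043569 have none. Of the 42 members 23 had reads and 19 had none in any of the 12 libraries (45.2%), against 4923 of the 24616 genes (20%). The rows on either side of the range were close to empty. The highest count in any library was 18 among the 5 rows next below it and 5 among the 5 rows next above it.

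The libraries came from RNA of frozen sheep reproductive tissue and carry the names Co or T with L for low or H for high fertility, 3 libraries to each of the 4 combinations. All 6 T libraries were labelled endometrium, which lines the uterus. Among the Co libraries 5 were labelled ovary, and Co-H 3 was labelled corpus luteum, the gland that forms from the follicle after ovulation and makes progesterone. The column headers of the deposited files do not make that split, and name every Co column CL and every T column Endo. The sources used here give no breed, age, treatment or meaning for Co and T, and the design text speaks of pooled samples without saying how many animals each holds. Nothing states that a group's libraries are from different animals, so the p-values measure the spread between these libraries, which may be technical. The tissue labels could not be set against marker genes, because the identifiers carry no names in the files.

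Mitochondria keep a small circular genome of their own. It codes for core subunits of the respiratory chain complexes and of ATP synthase, for the ribosomal RNAs of the mitochondrial ribosome and for a set of transfer RNAs. Both strands are copied into long precursors that are then cut into single RNAs, and some neighbouring genes overlap. Steroid-making cells such as those of the corpus luteum are known to be rich in mitochondria, since the first step from cholesterol to progesterone takes place inside them. The sheep RefSeq table (assembly ARS-UI_Ramb_v3.0) lists 37 genes on the mitochondrial chromosome, with 13 protein-coding, 22 transfer RNA and 2 ribosomal RNA genes. Those 37 are fewer than the 42 rows of the block. Neither the files nor the table pairs a cattle identifier with a gene name, so which row is which gene is not known here, and no role, sequence or length is given for a single member.

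Total counts ranged from 12665680 to 17852552 per library in Co and from 9627378 to 13934369 in T. Levels are given as CPM, which scales counts to a common library total after TMM adjustment (trimmed mean of M values), a factor that corrects for a few abundant genes taking up a library. The TMM factors were 0.745 to 1.00 in Co and 1.03 to 1.23 in T, so the adjustment raised the Co levels and lowered the T levels. Transcript lengths were not used, so levels are compared for the same member across libraries. Where members are ranked or set as shares, this is by read counts, to which transcript length contributes. Of the 42 members 20 had enough reads to be tested, and these 20 had reads in all 12 libraries. ENSBTAG00000043541, ENSBTAG00000043548 and ENSBTAG00000043578 had reads but too few for the test.

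The first question was how much of each library the block took up. In Co-L the block held 17.3%, 20.2% and 18.2% of all counts in libraries 1, 2 and 3, and in Co-H 18.1%, 17.6% and 16.5%. In T-L it held 7.21%, 6.50% and 6.66%, and in T-H 7.20%, 6.02% and 7.19%. Every Co library lay above every T library, and within a tissue the high and low fertility libraries overlapped. With 3 libraries in each group, the mean and SD were 18.6% ± 1.48 for Co-L, 17.4% ± 0.853 for Co-H, 6.79% ± 0.372 for T-L and 6.80% ± 0.677 for T-H. Over the tissues the mean was 18.0% ± 1.26 for Co against 6.80% ± 0.489 for T (SD, n = 6), a ratio of 2.65. The 95% Wilson interval of a single library's share extends no more than 0.0212 percentage points from the share and covers counting error only. In bulk tissue, fewer cells of a type and less RNA per cell cannot be told apart. The cattle build is named in the submitters' processing notes for Co-H 3 and the T libraries and for none of the other Co libraries, and the part of the build in the tissue difference was not tested. In Co-H 3 the named build and the corpus luteum label fall together and cannot be told apart. Its share, 16.5%, was the lowest of the Co libraries.

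**Figure D1:**
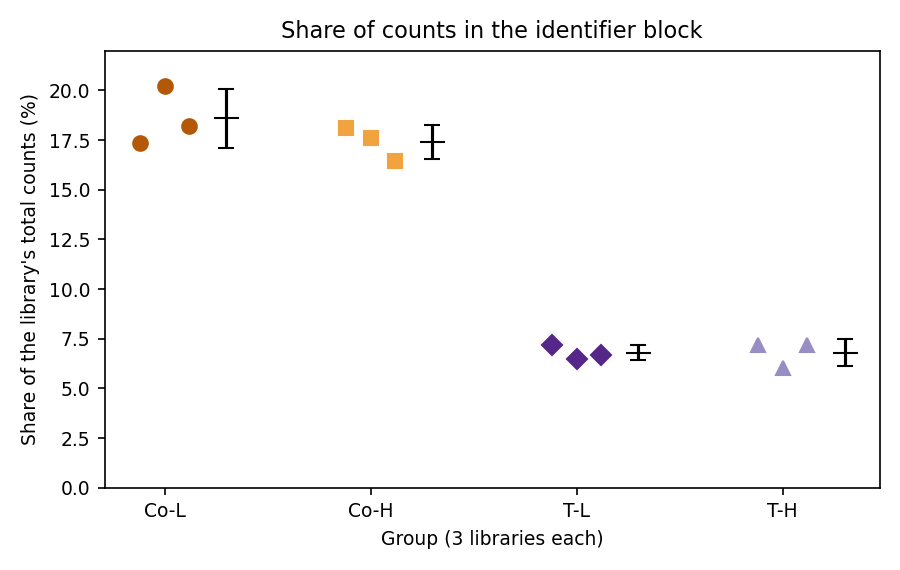
Share of each library's total counts that fell in the block (percent), by group; points are libraries, and the black bar is the group mean with its SD (n = 3). The 6 Co libraries sit between 16.5% and 20.2% and the 6 T libraries between 6.02% and 7.21%.

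The block stood at the head of the count lists in both tissues. Among the 10 genes with the most counts in a library, 7 or 8 were members in each Co library and 3 to 5 in each T library. ENSBTAG00000043561 had rank 1 in every library but T-H 1, where it had rank 2. ENSBTAG00000043560 had ranks 2 to 3 in Co and 3 to 8 in T. ENSBTAG00000043553 ranked between 249 and 515 in Co but between 9085 and 10787 in T.

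T and Co were then compared for each member, with fertility averaged over. Of the 20 tested members 16 were lower and 1 was higher in T, by the quasi-likelihood test of edgeR with p adjusted over 14839 genes and a threshold of 0.05. Over all genes tested 64.4% were called, 32.7% lower and 31.7% higher, so a call between the tissues was common and the members' calls lay mostly on the lower side. For 16 members every T library lay below every Co library, against 20.5% of all genes. The median log2 change was −1.75 over the 20 members and −0.01 over all genes tested.

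**Figure D2:**
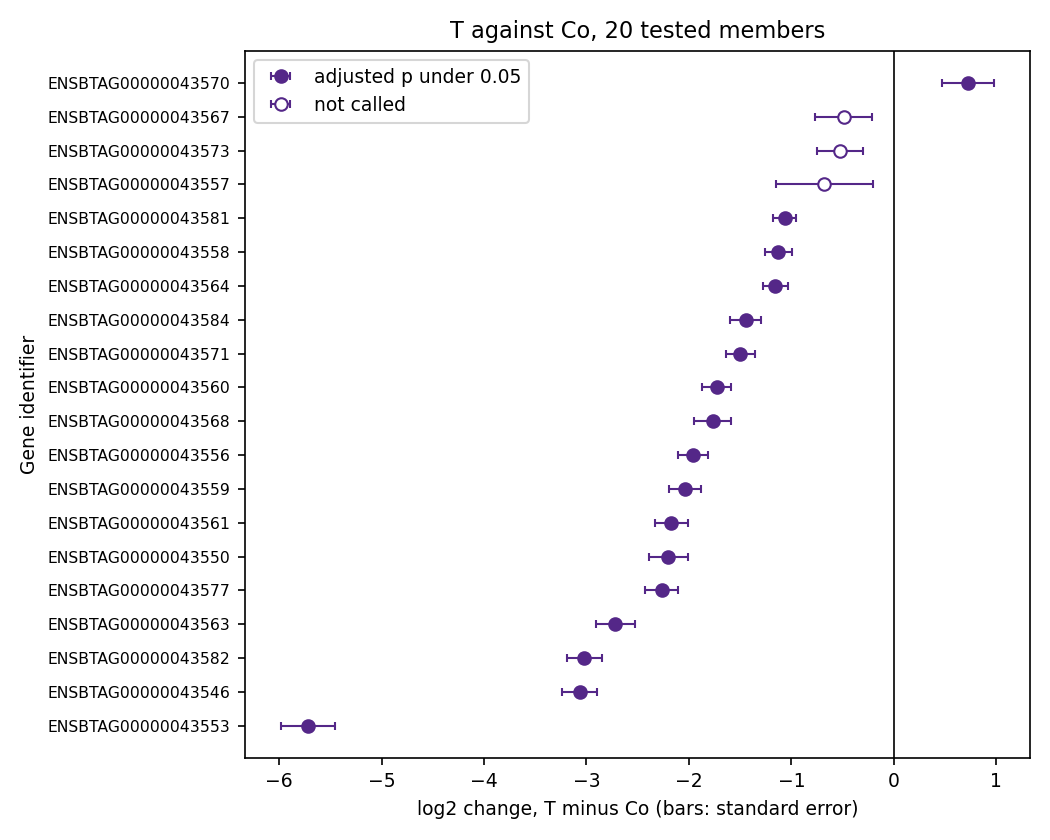
Log2 change from Co to T for the 20 tested members, ordered by size, with the standard error as bars; filled points passed an adjusted p under 0.05. The changes run from −5.72 for ENSBTAG00000043553 to 0.72 for ENSBTAG00000043570.

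Among the members called lower in T, 4 stood at least 5-fold lower. ENSBTAG00000043553 was at 557, 569.8 and 389 CPM in Co-L and 568, 263 and 255 CPM in Co-H. It was at 11.2, 8.16 and 7.14 CPM in T-L and 8.07, 8.36 and 5.88 CPM in T-H. The lowest Co library thus lay far above the highest T library, and within Co the libraries Co-H 2 and Co-H 3 were the lowest. Its log2 change was −5.72 (SE 0.27, edgeR adjusted p = 2.06e-08), a 52.6-fold difference.

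ENSBTAG00000043546 was at 4014, 5425 and 5394 CPM in Co-L and 5745, 4029 and 4143 CPM in Co-H. In T-L it was at 687, 494 and 534 CPM and in T-H at 691, 447 and 583 CPM. Its log2 change was −3.06 (SE 0.17, edgeR adjusted p = 7.41e-08), an 8.36-fold difference, with no overlap between the tissues.

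ENSBTAG00000043582 was at 1751, 3091 and 2321 CPM in Co-L, 1885, 1820.2 and 1679.6 CPM in Co-H, 282, 214 and 206 CPM in T-L, and 333, 223 and 278 CPM in T-H. ENSBTAG00000043563 was at 10419, 13007 and 8694 CPM in Co-L, 14073, 10433 and 9850.0 CPM in Co-H, 1966, 1553 and 1418 CPM in T-L, and 2147, 1185 and 1830.3 CPM in T-H. In both members the Co and T libraries stayed apart, by 8.11-fold and 6.58-fold in the fit. The highest Co value was that of Co-L 2 for the first and of Co-H 1 for the second.

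The remaining 12 members called lower in T differed by 2.10-fold to 4.81-fold with TMM factors. The one with the most counts, ENSBTAG00000043561, was at 86271, 120056 and 86973 CPM in Co-L and 85024, 72944 and 69934 CPM in Co-H. In T-L it was at 19837, 18722 and 17294 CPM and in T-H at 22736, 16086 and 20185 CPM. Co-L 2 stood above the other Co libraries, and the tissues differed 4.50-fold.

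ENSBTAG00000043577 was at 13224, 17015 and 16765 CPM in Co-L, 15220.3, 12370.2 and 11659 CPM in Co-H, 3297, 2448 and 2579 CPM in T-L, and 3984, 2534 and 3059 CPM in T-H. ENSBTAG00000043550 was at 14064, 17216 and 17658 CPM in Co-L, 14414, 13588 and 10098 CPM in Co-H, 3519, 2529.6 and 2599 CPM in T-L, and 4528, 2268 and 3376 CPM in T-H. These members were lower in T by 4.81-fold and 4.60-fold, close to the difference of ENSBTAG00000043561.

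ENSBTAG00000043559 was at 925, 1116 and 788 CPM in Co-L, 924, 830.5 and 713 CPM in Co-H, 219.8, 182 and 182 CPM in T-L, and 295, 163 and 251 CPM in T-H. ENSBTAG00000043556 was at 12468, 17069 and 18815 CPM in Co-L, 12113, 11311 and 10168 CPM in Co-H, 3238, 3139 and 3101 CPM in T-L, and 4553, 3096 and 3624 CPM in T-H. The T-L libraries of the second lay within a narrow range, while T-H 1 was highest among the T libraries in both. The tissue differences were 4.11-fold and 3.90-fold.

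ENSBTAG00000043568 was at 4193, 6078 and 6427 CPM in Co-L, 5091, 4299.6 and 3259.8 CPM in Co-H, 1579.7, 1111 and 1201 CPM in T-L, and 2009, 1298 and 1359 CPM in T-H. ENSBTAG00000043560 was at 17747, 23258 and 25271 CPM in Co-L, 16999, 15368 and 14102 CPM in Co-H, 5778, 5243 and 5019.8 CPM in T-L, and 6891, 4848 and 5725 CPM in T-H. Both were highest in Co-L 3, and T-H 1 again led the T libraries. The tissues differed by 3.41-fold and 3.32-fold.

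ENSBTAG00000043571 was at 8185, 9608 and 9348 CPM in Co-L, 10434, 7804 and 6681 CPM in Co-H, 3255, 2682 and 2702 CPM in T-L, and 3744, 2885 and 3176 CPM in T-H. ENSBTAG00000043584 was at 11349, 14989 and 17111 CPM in Co-L, 12575, 10452 and 9023 CPM in Co-H, 4895, 4040.2 and 4107 CPM in T-L, and 5773, 4023 and 4563 CPM in T-H. Their tissue differences were smaller, 2.83-fold and 2.73-fold, and still without overlap.

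ENSBTAG00000043564 was at 637, 777 and 723 CPM in Co-L, 618, 546 and 447 CPM in Co-H, 258, 225 and 256 CPM in T-L, and 358, 249 and 328 CPM in T-H. ENSBTAG00000043558 was at 11625, 15772 and 13889 CPM in Co-L, 11859.8, 10593 and 9103 CPM in Co-H, 5535, 4939 and 4768 CPM in T-L, and 6868, 5242 and 5738 CPM in T-H. With ENSBTAG00000043581, whose mean was 21.0 ± 3.72 CPM over Co against 9.91 ± 1.16 CPM over T (SD, n = 6), they had the smallest differences among the members called lower, 2.10-fold to 2.23-fold.

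One member was called in the other direction. ENSBTAG00000043570 was at 2085, 4309.9 and 5513 CPM in Co-L and 3548, 2524 and 2414 CPM in Co-H. In T-L it was at 5844, 4376 and 9685 CPM and in T-H at 3955, 5171 and 4698 CPM. The tissues overlapped: Co-L 2 and Co-L 3 reached the range of T, and T-L 3 stood well above all other libraries. Its log2 change was 0.72 (SE 0.26, edgeR adjusted p = 0.0265). Without Co-H 2 or without Co-H 3 the change was 0.68 or 0.67 and the call was lost (edgeR adjusted p = 0.059 or 0.0599).

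The other 3 tested members were not called between the tissues. ENSBTAG00000043567 was at 1010.4, 1972 and 2089 CPM in Co-L, 2839, 1063 and 1082 CPM in Co-H, 1165, 872 and 1604 CPM in T-L, and 1121, 1108 and 1287 CPM in T-H. Its log2 difference was −0.49 (SE 0.28, edgeR adjusted p = 0.144), and Co-H 1 stood above all other libraries. ENSBTAG00000043573 had a mean of 8.81 ± 4.04 CPM over Co against 5.89 ± 0.750 CPM over T (SD, n = 6), with Co-L 2 and Co-L 3 at 14.4 and 13.5 CPM and the other 10 libraries at 4.95 to 7.05 CPM (log2 difference −0.53, SE 0.22, edgeR adjusted p = 0.058). ENSBTAG00000043573 was called without Co-L 1 (log2 change −0.61, SE 0.15, edgeR adjusted p = 0.00587), where 62.2% of all genes were called. Its change was −0.34 without Co-L 2 and −0.36 without Co-L 3 (edgeR adjusted p = 0.237 and 0.199). With library totals and no TMM factor it was −0.09 (edgeR adjusted p = 0.732). ENSBTAG00000043557 had only 119 counts over all libraries and had a mean of 0.930 ± 0.536 CPM over Co against 0.593 ± 0.285 CPM over T.

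**Figure D3:**
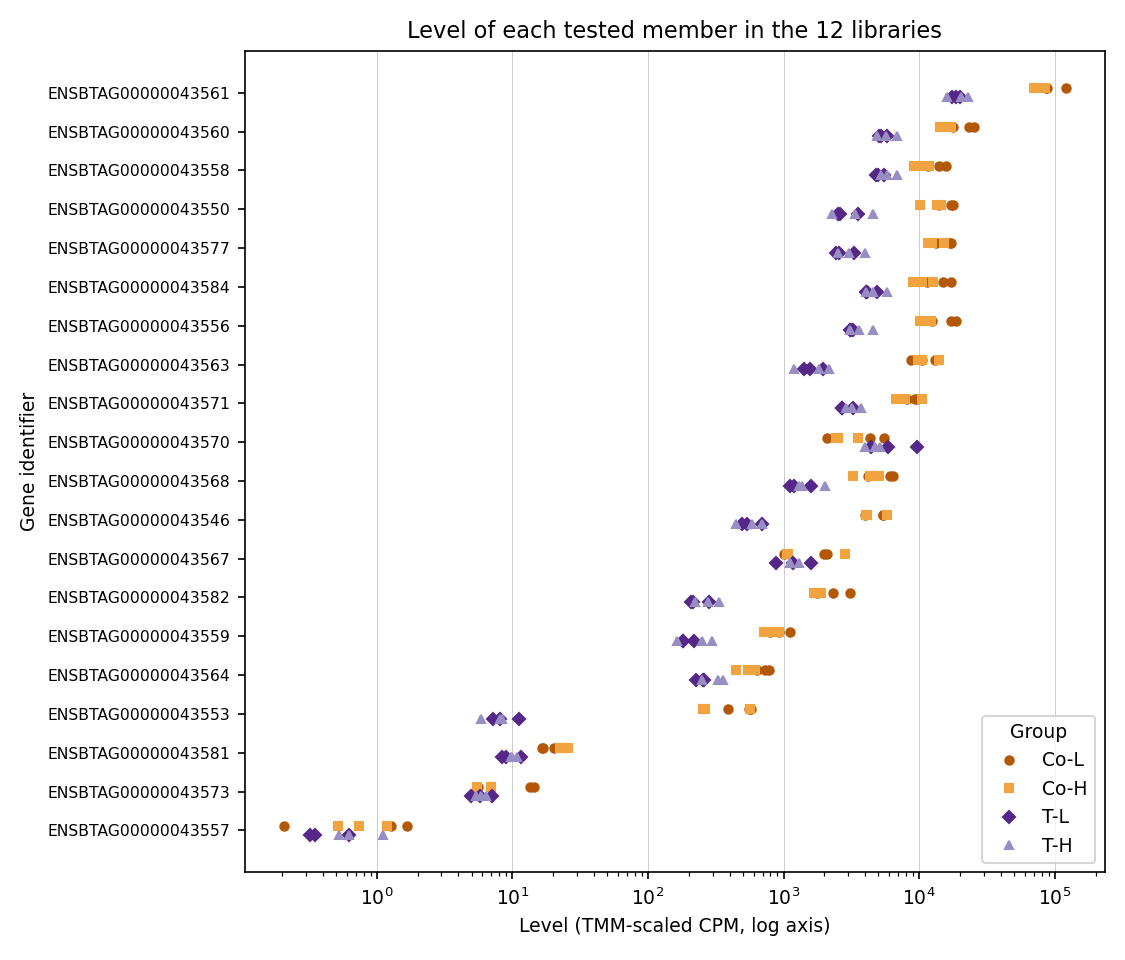
Level of the 20 tested members in each of the 12 libraries, in TMM-scaled CPM on a log axis, Co libraries drawn just above and T libraries just below each line. The T points lie to the left of the Co points for 16 members, and the tissues overlap for ENSBTAG00000043570, ENSBTAG00000043567, ENSBTAG00000043573 and ENSBTAG00000043557.

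The scaling moved the size of these differences. With library totals and no TMM factor, the median log2 change of all genes tested moved from −0.01 to 0.42. The changes of ENSBTAG00000043553 and ENSBTAG00000043546 were then −5.27 and −2.63, that of ENSBTAG00000043567 was −0.02 and that of ENSBTAG00000043570 was 1.18. Those of ENSBTAG00000043581, ENSBTAG00000043558 and ENSBTAG00000043564 were −0.64, −0.69 and −0.73, against −1.07, −1.13 and −1.16 with TMM factors. No member changed sign in this setting, and the same number was called (16 lower and 1 higher), where 67.7% of all genes were called. The sign was negative in 19 of the 20 members and 31.5% of all genes, against 50.3% of all genes with TMM factors. The setting was chosen after seeing the data.

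Of the 3 members with too few reads for the test, 2 had ratios whose counting intervals did not include equal levels. ENSBTAG00000043578 had 3 counts in all Co libraries together, with 0 or 1 in each, and 36 in the T libraries, with 3 to 8 in each. As unscaled CPM this was 0.0329 against 0.502, a ratio of 15.2 with an exact Poisson interval of 4.81 to 77.3. ENSBTAG00000043548 went the other way, with 24 counts in Co and 5 in T, a ratio of 0.265 with an interval of 0.0788 to 0.707. Its libraries overlapped, with 2 to 9 counts in each Co library and 0 to 3 in each T library. ENSBTAG00000043541 had 3 and 5 counts, and its interval of 0.412 to 13.6 included equal levels. These 95% intervals cover counting error only, not the spread between libraries. Without a count filter ENSBTAG00000043578 was called higher in T (log2 change 3.31, SE 0.67, edgeR adjusted p = 0.00106). ENSBTAG00000043548 was called lower in T (log2 change −2.42, SE 0.83, edgeR adjusted p = 0.0279). In that setting 50.3% of all genes were called.

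The make-up of the block was compared as the share of the block's own counts held by each member, which no library scaling can move. ENSBTAG00000043561 held 41.1% ± 2.78 of the block in Co libraries and 32.6% ± 1.79 in T libraries (SD, n = 6). The 17 members at a mean of 100 CPM or more held at least 99.96% of the block's counts in every library. Of these 17, the shares of 10 did not overlap between the tissues, 6 with a lower and 4 with a higher share in T. The shares of the other 7 overlapped.

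ENSBTAG00000043570 showed the greatest gain in share. It held 1.04%, 1.59% and 2.31% of the block in Co-L and 1.66%, 1.40% and 1.47% in Co-H. In T-L it held 9.52%, 8.29% and 16.9% and in T-H 5.65%, 10.2% and 7.82%. For every 100 counts of ENSBTAG00000043561 there were 2.42 to 6.34 counts of it in the Co libraries and 17.4 to 56.0 in the T libraries. The T libraries differed more among themselves than the Co libraries did, with T-L 3 highest and T-H 1 lowest.

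ENSBTAG00000043567 moved in the same direction, at 0.780% ± 0.296 of the block in Co and 2.05% ± 0.441 in T. Co-H 1, at 1.33%, was its highest Co library, and T-H 1, at 1.60%, its lowest T library. Relative to ENSBTAG00000043570 it was scarcer in T, with 16.6 to 28.3 counts per 100 counts of that member in T and 37.9 to 80.0 in Co. ENSBTAG00000043558 held 5.73% ± 0.154 of the block in Co and 9.39% ± 0.681 in T, and ENSBTAG00000043564 held 0.295% ± 0.0161 and 0.473% ± 0.0502. Within Co the share of ENSBTAG00000043558 varied little, from 5.53% to 5.88%.

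The 6 members with a smaller share in T were ENSBTAG00000043561, the 4 members at least 5-fold lower in CPM, and ENSBTAG00000043577. ENSBTAG00000043553 went from 0.203% ± 0.0578 of the block in Co to 0.0140% ± 0.00323 in T. For every 100 counts of ENSBTAG00000043546 there were 6.15 to 13.9 counts of ENSBTAG00000043553 in Co and 1.01 to 1.87 in T. ENSBTAG00000043546 itself went from 2.28% ± 0.275 to 0.971% ± 0.0820 of the block, and ENSBTAG00000043563 from 5.33% ± 1.03 to 2.84% ± 0.355. Because shares of 1 total must sum to a whole, a gain by ENSBTAG00000043570 lowers the shares of other members.

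**Figure D4:**
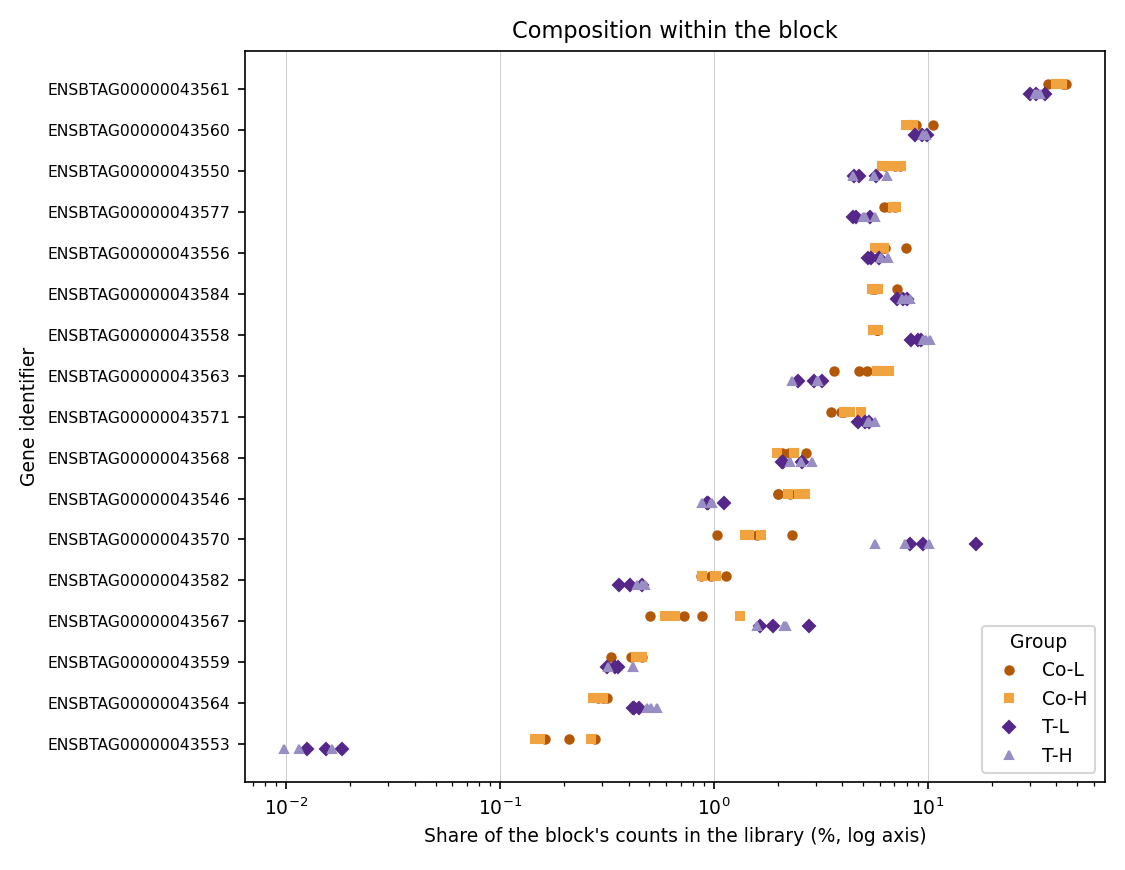
Share of the block's counts held by each of the 17 members at a mean of 100 CPM or more (percent, log axis), 1 point per library, Co just above and T just below each line. ENSBTAG00000043570 moves from 1.04% to 2.31% in Co to 5.65% to 16.9% in T, and ENSBTAG00000043553 moves the opposite way.

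High and low fertility were compared within each tissue. In Co no member was called (edgeR, smallest adjusted p = 0.116 among the 20), where 4.78% of all genes were. That background of 709 genes was itself unsteady, at 3110 genes without Co-H 1 and 0 without Co-H 2 or Co-H 3. Leaving out Co-L 1, Co-L 2 or Co-L 3 gave 1131, 7 or 1 genes. The T libraries are outside the contrast, yet leaving out T-L 1 gave 2 genes and leaving out any other T library gave 0. At an unadjusted p under 0.05 there were 5 members, against 28.8% of all genes, and DESeq2 called 2 members (10% of the 20) where it called 15.3% of all genes. The median log2 difference, Co-H minus Co-L, was −0.38 over the members and −0.07 over all genes, and 18 of the 20 members had a negative sign, as did 54.9% of all genes. In 4 members every Co-H library lay below every Co-L library, against 13.5% of all genes, and in 1 member above, against 9.66%. The TMM factors moved with this contrast, at 0.745 to 0.865 in Co-L and 0.847 to 1.00 in Co-H, and their part in the differences was not tested beyond the scaling settings. With library totals and no TMM factor no member was called (smallest edgeR adjusted p = 0.0508), and 14 of 20 members and 35.7% of all genes had a negative sign. The medians were then −0.13 over the members and 0.17 over all genes. With TMM factors, dropping Co-L 2 moved the members' median to −0.20, and dropping Co-L 3 moved it to −0.24. Dropping Co-H 3 moved it to −0.29, with 16 of 20 members and 53.8% of all genes negative. Dropping Co-L 1, Co-H 1 or Co-H 2 gave −0.41, −0.39 or −0.37. Dropping any T library also moved it, to between −0.32 and −0.33, with 17 of 20 members and 50.7% to 51.4% of all genes negative. Co-H 3 is the only Co library with the corpus luteum label and a named build, and it belongs to the high fertility group. The part of that label or build in the fertility contrast was not tested further.

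ENSBTAG00000043581 had the smallest p among members higher in Co-H. It was at 16.9, 16.7 and 20.4 CPM in Co-L and 22.4, 25.6 and 24.1 CPM in Co-H. On the log2 scale Co-H was higher by 0.42 (SE 0.16, edgeR adjusted p = 0.116). The 6 T libraries were at 8.43 to 11.5 CPM, with high and low fertility overlapping. ENSBTAG00000043556, with the levels given above, had the smallest p among members lower in Co-H, with Co-H minus Co-L at −0.53 on the log2 scale (SE 0.20, edgeR adjusted p = 0.117). DESeq2 called ENSBTAG00000043556 (adjusted p = 0.0343) and ENSBTAG00000043560 (adjusted p = 0.0276), both lower in Co-H.

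Single Co libraries bore on other members. ENSBTAG00000043553 was as high in Co-H 1, at 568 CPM, as in 2 of the Co-L libraries. With Co-H 1 left out it was called lower in Co-H by a log2 change of −0.88 (with SE 0.23, edgeR adjusted p = 0.0234), against −0.48 with all libraries (edgeR adjusted p = 0.319). That fit called 1 of the 20 members and 20.5% of all genes. ENSBTAG00000043573 was at 5.59 CPM in Co-L 1, close to the 5.50, 6.94 and 6.93 CPM of Co-H. Without Co-L 1 it was called lower, at −1.04 (SE 0.23, edgeR adjusted p = 0.0325), against −0.78 with all libraries (edgeR adjusted p = 0.134). The fit without Co-L 1 called 1 of the 20 members and 7.47% of all genes.

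In T no member was called (edgeR, smallest adjusted p = 1 among the 20), and neither was any other gene, which makes 0% of the genes tested. No member reached an unadjusted p under 0.05, against 4.10% of all genes, and DESeq2 called 0 members and 27 genes in all. The high and low libraries overlapped in all 20 tested members, while 10.4% of all genes were without overlap. The median log2 difference, T-H minus T-L, was 0.16 over the members and 0.01 over all genes, with a positive sign in 16 of 20 members and 51.0% of all genes. With library totals and no TMM factor the medians were 0.08 and −0.06, with 14 members positive. The positive signs rested in part on T-H 1: without it 10 members were positive and 10 negative, with a median of 0.01. The TMM factor of T-H 1 was 1.03, against 1.16 to 1.23 in the other T libraries. In T-H 1 a gene outside the block, ENSBTAG00000031160, held 5.20% of all counts. The part of that factor in the T-H 1 levels was not tested beyond the scaling settings. The members' median was 0.25 without T-H 2. ENSBTAG00000043564 had the smallest p among members higher in T-H, at 0.34 on the log2 scale (SE 0.17, edgeR adjusted p = 1). ENSBTAG00000043570 had the smallest p among members lower in T-H, at −0.53 (SE 0.36, edgeR adjusted p = 1), with T-L 3 at 9685 CPM and the other 5 T libraries at 3955 to 5844 CPM.

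**Figure D5:**
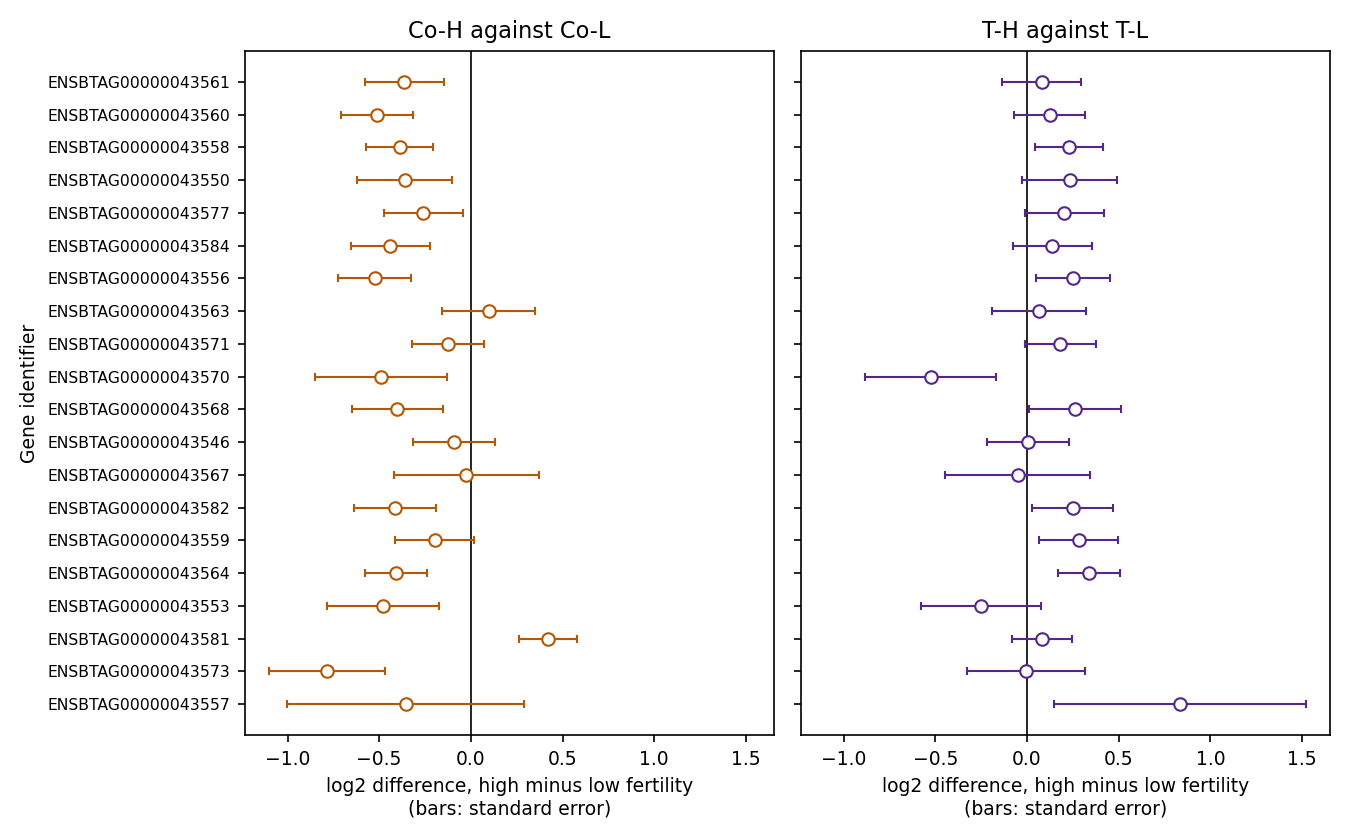
Log2 difference between high and low fertility for the 20 tested members in Co (left) and T (right), with the standard error as bars; open points mark members that were not called. With TMM factors 18 members lie below 0 in Co (14 with library totals) and 16 above 0 in T (10 without T-H 1), and none passed the test in either tissue.

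With TMM factors 14 of the 20 members were negative in Co and positive in T, as were 26.4% of all genes. The count of members was 9 without T-H 1, against 23.3% of all genes, and 11 with library totals and no TMM factor, against 12.5% of all genes. The difference of the fertility contrasts was tested directly and called no member and no other gene (edgeR, 0% of genes, smallest adjusted p among members = 0.257). At an unadjusted p under 0.05 there were 4 members, against 16.3% of all genes, and DESeq2 called 0 members and 135 genes in all. Without Co-H 1 edgeR called 1237 genes and still 0 members. The median difference was 0.53 over the members and 0.07 over all genes on the log2 scale. It was 0.20 and −0.24 with library totals, and the members' median was 0.27 without T-H 1. ENSBTAG00000043564 had the smallest p in the positive direction, at 0.75 (SE 0.24, edgeR adjusted p = 0.257), and ENSBTAG00000043581 in the negative direction, at −0.34 (SE 0.23, edgeR adjusted p = 0.460).

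The libraries of a tissue differed from each other to unlike degrees from member to member. Over the 6 Co libraries the highest level of a member at 100 CPM or more was 1.43 to 2.81 times the lowest, and over the 6 T libraries 1.40 to 2.45 times. ENSBTAG00000043567 varied most in Co, at 2.81 times, and ENSBTAG00000043570 most in T, at 2.45 times. ENSBTAG00000043546 varied least in Co, at 1.43 times, and ENSBTAG00000043571 least in T, at 1.40 times.

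The 19 members without reads were ENSBTAG00000043542, ENSBTAG00000043544, ENSBTAG00000043545, ENSBTAG00000043547, ENSBTAG00000043549, ENSBTAG00000043551, ENSBTAG00000043552, ENSBTAG00000043554, ENSBTAG00000043555, ENSBTAG00000043562, ENSBTAG00000043565, ENSBTAG00000043566, ENSBTAG00000043572, ENSBTAG00000043574, ENSBTAG00000043575, ENSBTAG00000043576, ENSBTAG00000043579, ENSBTAG00000043580 and ENSBTAG00000043583. A count of 0 in a library allows an unscaled level of up to 0.168 to 0.312 CPM, taken as 3 counts of the library total.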

How the data were processed

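Raw read counts per gene were deposited by the authors in 1 file per library, with cattle identifiers in the gene column per the file headers. Per the submitters' processing notes the reads were aligned with Bowtie 0.12.2, and the cattle build bosTau8 is named for 7 libraries and none for 5. The sources used here give no counting tool, annotation, strand setting or treatment of multiply matching reads, so overlapping genes and nuclear copies of mitochondrial genes cannot be told apart. A blank line in 1 file was skipped, and in another the header ran into the first gene. None of the identifiers (0) matched the sheep gene table, so the planned lists of nuclear respiratory genes and tissue markers were not run.

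Counts were tested in R 4.3.3 with edgeR 4.0.16 on 14839 genes kept by filterByExpr (minimum count 10), with TMM factors, 1 mean per group and all 12 libraries. The SE was taken from the log2 change and the quasi-likelihood F statistic. Each contrast's p-values had a Benjamini-Hochberg adjustment over all genes tested and were called under 0.05. Values in every library are given for members at a mean of 100 CPM or more, and test statistics for at most 2 members in each direction of a contrast, those with the smallest p, as set for named genes. Members whose call changed under an alternative are also given and were chosen after their values were seen. Test statistics of ENSBTAG00000043567 between T and Co are given as well, outside these rules. The members and lists were chosen with earlier results of these data known. The code was tested on simulated data. Replicate pairs differed by more than sampling noise (chi-square of 18.0 to 134.9 per degree of freedom). Alternatives were RLE or upper quartile factors, scaling on genes outside the block, no factors, DESeq2 1.42.0, other count filters, a fit to the libraries of 1 tissue, a replicate block, and fits with libraries left out.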

Additional observations from a re-analysis of the deposited data

How the results depend on the processing

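The count of members called between T and Co was 16 to 19 in all settings run. Over all genes the share called ranged from 50.3% without a count filter to 67.7% without scaling factors. It was 17 with the replicate number as a block and with each other scaling, 19 without a count filter, where 23 members were tested, and 16 to 18 with a library left out. The share of the block without the member with the most counts was 11.8% in Co-L, 11.1% in Co-H, 4.68% in T-L and 4.69% in T-H. Between Co-H and Co-L DESeq2 called 2 members against 0 in edgeR, and with a library left out edgeR called 0 to 1. It called 2 when Co-L 3 and Co-H 1 were left out together (added after seeing the data), with ENSBTAG00000043553 lower (log2 change −1.03, adjusted p = 0.0107) and ENSBTAG00000043581 higher (0.66, adjusted p = 0.0364). The cause was not tested. The counts for T-H against T-L and for the difference between tissues were 0 in every setting, and no sign changed among the 20 members for T against Co or the 2 members, 1 in each direction, followed in each other contrast. Same-numbered libraries did not deviate together in every pair: r was over 0.1 in 3 of 18 pairs, and the own number correlated best in 14 of 36 comparisons, where 12 would be met if the number carried nothing. Between Co-L and Co-H, r was 0.213, 0.0194 and 0.249 for numbers 1, 2 and 3, which holds 2 of the 3 pairs over 0.1. Whether these correlations bear on the calls lost with the replicate block was not tested. Over all genes, the calls in Co-H against Co-L moved from 709 to 0 with the replicate block, 2271 with DESeq2, 3 without a count filter, 1 with only the Co libraries, 1294 without scaling factors, 2664 without both Co libraries named above, and 0 to 3110 with a library left out. For the difference between tissues they moved from 0 to 135 with DESeq2, 1237 without Co-H 1 and 1262 without both libraries, and for T-H against T-L from 0 to 27 with DESeq2 and 1 with only the T libraries.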
